A study of Drosophila melanogaster with 16 samples.

Results

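The Tweedle and Osiris genes are tandemly arrayed insect gene families whose products are made while the larval cuticle is laid down. Members were taken as all genes whose symbol begins with *Twdl*, or with *Osi* and a number, and whose mean normalized count was above 0 in either deposited table. This gave 50 members, 25 Tweedle and 25 Osiris genes, of 13754 genes in each table. Within the families, members were taken by symbol and that minimum alone. The families themselves were chosen with earlier results of these data known.

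Poly(A) RNA of single *Drosophila melanogaster* embryos at stage 16 was sequenced in 2 comparisons, each held in a table of its own. *Asx0* embryos (n = 5) were progeny of heterozygous parents, picked for lack of the GFP that marks the balancer chromosome, so they have no zygotic Asx, the partner of the deubiquitinase Calypso in PR-DUB, while product from the mother can persist. *SceI48A* embryos (n = 4) lacked wild-type Sce from mother and zygote and carried inserted copies of the catalytically inactive form of this E3 ligase of PRC1, in a stock with germline Gal4 and Flp transgenes and a *Sce* null chromosome 3. Each mutant was set against Oregon-R wild type, 3 embryos in the *Asx0* table and 4 other embryos in the *SceI48A* table. PR-DUB removes the monoubiquitin of histone H2A (H2Aub1) and PRC1 adds it, so the mutants move this mark in opposite directions. Neither stock shares the Oregon-R background, and the *Sce* null chromosome carries the arm 3R on which most members lie, so strain differences near these genes cannot be told apart from the mutation.

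Tweedle proteins are secreted structural proteins of the insect cuticle that share a conserved domain, and dominant mutations in *TwdlD* and in *Tubby* (*Tb*, the Tweedle gene TwdlA) make the larva and pupa short and squat. Osiris proteins are membrane proteins of cuticle-making cells, and most of their genes lie in the region known for the Triplo-lethal dosage effect, where both 1 and 3 copies kill. *Osi9*, *Osi15* and *Osi19* are known from the developing trachea, *Osi23* (*gore-tex*) shapes the pores of olfactory bristles, and *Osi21* was described in photoreceptors. At stage 16 the embryonic epidermis and trachea are secreting cuticle.

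The Osiris family formed a single large array of 22 genes on the right arm of chromosome 3 (dm6, 3R:6173549-6341424, 167.9 kb), 20 of them on the plus strand. *Osi21*, *Osi22* and *Osi23* lay alone. The Tweedle genes formed 3 arrays, with 12 genes from *TwdlM* to *TwdlD* within 21.9 kb (3R:26619118-26641054), 3 genes, *TwdlF*, *TwdlG* and *TwdlV*, within 8.8 kb (3R:4247020-4255833), and 4 genes, *TwdlX*, *TwdlY*, *TwdlZ* and *Twdlalpha*, within 13.3 kb of the X chromosome (X:16731091-16744365). *TwdlE*, *Twdlbeta*, *TwdlW*, *TwdlQ*, *TwdlC* and *TwdlT* lay outside the arrays. The libraries did not mark the strand, so reads from exon stretches that *TwdlE* shares with *lectin-28C* (968 bases) and *Osi21* with *mre11* (9 bases) cannot be assigned to a strand, and *Twdlalpha* shares 72 bases with *CG32568*.

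In the Osiris array, the 12-gene Tweedle array and the X array low and abundant genes were neighbours, whereas all 3 genes of the array of *TwdlF*, *TwdlG* and *TwdlV* were abundant. Levels of different genes are compared here only as the authors' mean normalized count divided by the coding length in kb. In the *Asx0* table the highest Tweedle genes were *TwdlM* with 73529, *TwdlD* with 73019, *TwdlL* with 27547 and *TwdlW* with 25300 mean normalized counts per kb of coding length. *TwdlM* and *TwdlD* stand at the ends of the 12-gene array, and between them *TwdlO* was at 5.64 and *TwdlJ* at 21.9 on the same scale. In the *SceI48A* table *TwdlF* was highest with 101093, followed by *TwdlD* with 55616, *TwdlM* with 41114 and *TwdlW* with 27830 mean normalized counts per kb. Among Osiris genes *Osi15* led in both tables, with 43441 in the *Asx0* table and 84668 in the *SceI48A* table, while the next Osiris gene of the array, *Osi16*, was at 4.01 and 22.8 mean normalized counts per kb. *Osi20* came next, with 20516 and 49514, and then *Osi19*, with 6560 and 25644. The remaining place among the 4 highest went to *Osi18* in the *Asx0* table (5390) and to *Osi9* in the *SceI48A* table (24928). All Tweedle genes together took 1.70% and all Osiris genes 0.401% of the summed mean normalized counts of the *Asx0* table, and 1.33% and 0.805% of those of the *SceI48A* table.

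**Figure D1:**
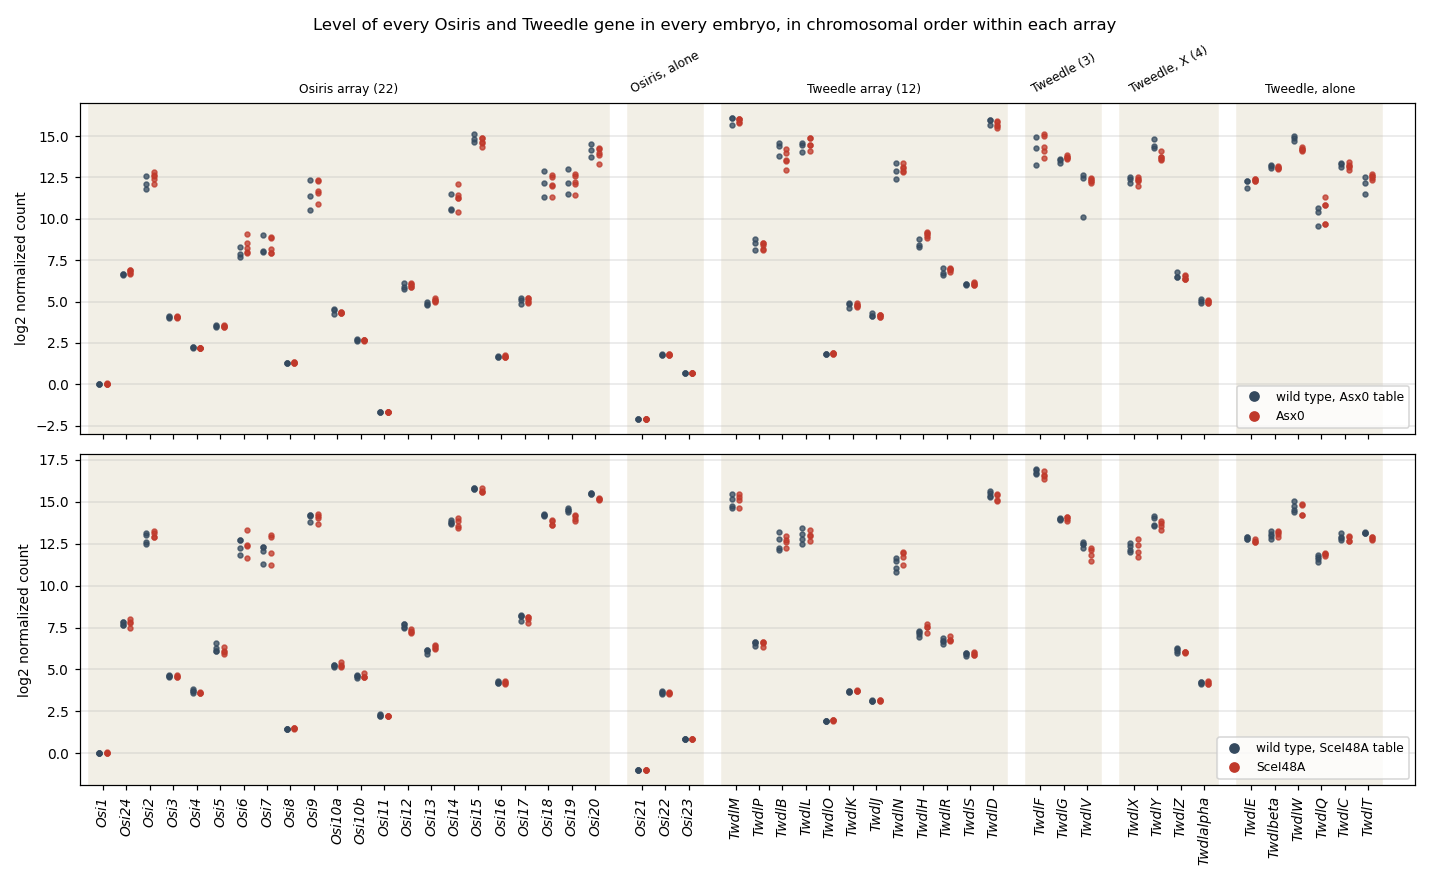
Log2 normalized count (vertical axis) of each of the 50 members in each embryo, with members in chromosomal order within each array along the horizontal axis; upper panel, *Asx0* table, lower panel, *SceI48A* table. Points are single embryos, wild type in dark blue and mutant in red. Neighbours such as *Osi15* and *Osi16* lie far apart in level, and for most members the mutant and wild-type points overlap.

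The question of both comparisons was how far a gain or a loss of H2Aub1 changes transcription. Most members did not differ clearly from wild type in either mutant. A limma fit was made over all genes whose mean normalized count reached 10, which 24 Tweedle and 16 Osiris genes reached in the *Asx0* table and 23 and 20 in the *SceI48A* table; the other members were too low to be tested. A member is called here at a Benjamini-Hochberg adjusted p under 0.05 from limma over all tested genes. Standard errors of the log2 differences reached 0.44 (*TwdlV*, *Asx0* table) and 0.36 (*Osi7*, *SceI48A* table). A member that was not called may therefore still have changed. No member differed by more than 2-fold together with that adjusted p in either table. Few genes did at all, 45 of 10212 tested in the *Asx0* and 42 of 10369 in the *SceI48A* table. The deposited log2 values behave like shrunken ones, since low genes were nearly equal in all embryos, so the log2 differences may understate a change, above all for low genes. Values of single embryos are given in the order of their replicate numbers. In whole embryos, fewer cells of a type and less RNA per cell cannot be told apart.

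In *Asx0* embryos 1 Tweedle gene rose and 2 fell, and 1 Osiris gene rose and none fell. Over all 10212 tested genes 5.19% were called higher and 6.15% lower, 11.3% in either direction, so the called share of the Tweedle genes (12.5%) and of the Osiris genes (6.25%) was close to or under the background. The median log2 fold change was -0.0074 over the Tweedle genes, 0.024 over the Osiris genes and -0.00019 over all tested genes. The Osiris median was -0.043 without wild-type replicate 1 and 0.23 without wild-type replicate 3. By unadjusted p under 0.05, 6 Tweedle and 2 Osiris genes passed in the limma fit, where 2722 of all 10212 tested genes did.

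*TwdlW* and *TwdlY* were the members that fell in *Asx0* embryos. *TwdlW* (3R:17141208-17142404), which lies alone, had log2 normalized counts of 14.23, 14.12, 14.20, 14.34 and 14.16 in the *Asx0* embryos against 14.91, 14.98 and 14.69 in wild type. Every mutant embryo was below every wild-type embryo, and the log2 fold change came to -0.65 (standard error, SE, 0.07, limma adjusted p = 0.00031). *TwdlY* (X:16734947-16735980), the second gene of the X array, stood at 14.12, 13.59, 13.74, 13.56 and 13.73 in the mutants and at 14.83, 14.27 and 14.38 in wild type, which gave -0.75 as log2 fold change (SE 0.14, limma adjusted p = 0.0065). Its groups did not overlap either, though the highest mutant embryo, replicate 1, came near the lowest wild-type embryo. The other genes of the X array did not pass, with log2 fold changes of -0.03 for *TwdlX*, -0.15 for *TwdlZ* and -0.02 for *Twdlalpha*.

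The X-linked *TwdlY* was read beside genes that differ between the sexes. *msl-2*, the dosage compensation gene translated in males, had log2 normalized counts of 8.31 in *Asx0* replicate 1 and 8.24 and 8.37 in wild-type replicates 1 and 3, and of 8.99 to 9.16 in the other 5 embryos. *Sxl*, the female switch gene, was highest in the same 3 embryos, at 12.00, 12.18 and 12.26. *Asx0* replicate 1 was the highest mutant embryo for *TwdlY*, and wild-type replicates 1 and 3 were the highest wild-type embryos. With *msl-2* minus *Sxl* as a covariate the log2 fold change of *TwdlY* was -0.54 (SE 0.11, limma adjusted p = 0.0191), and *TwdlW* and *TwdlH* were at -0.69 and 0.64. In the *SceI48A* table *msl-2* was lowest in *SceI48A* replicate 2 (9.03) and wild-type replicate 3 (8.76), and these were the highest embryos of their groups for *TwdlY* (13.87 and 14.18) and *TwdlX* (12.78 and 12.54).

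*TwdlH*, number 9 in the 12-gene array (3R:26633732-26634714), was the Tweedle gene that rose. Its mean normalized count was 482 in the *Asx0* table. Its log2 normalized counts were 9.10, 8.96, 9.12, 8.83 and 9.20 in *Asx0* embryos and 8.77, 8.32 and 8.39 in wild type. All 5 mutant embryos lay above all 3 wild-type embryos, at a log2 fold change of 0.55 (SE 0.11, limma adjusted p = 0.00876). Its neighbours *TwdlN* (0.15) and *TwdlR* (0.12) had log2 fold changes that did not pass, and the abundant ends of the array, *TwdlM* and *TwdlD*, were at 0.0031 and -0.16. In all, 2 of the 24 Tweedle genes (*TwdlW* and *TwdlY*) had every mutant embryo below every wild-type embryo, where 10.3% of all tested genes did, and 2 (*TwdlH* and *TwdlG*) had every mutant above, where 9.79% did. *TwdlG*, with a log2 fold change of 0.22, did not pass (limma adjusted p = 0.0836).

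*TwdlB* followed with a log2 difference of -0.62, which did not pass (limma adjusted p = 0.15). Its log2 normalized counts of 13.95, 13.51, 13.57, 12.97 and 14.24 in *Asx0* embryos overlapped the 14.61, 14.40 and 13.79 of wild type. The spread between embryos of 1 group was 0.46 for this gene (pooled SD), close to the difference itself.

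*Osi13*, a gene of low level (mean normalized count 34.3 in the *Asx0* table), was the Osiris gene that rose. Its log2 normalized counts were 5.21, 5.05, 5.07, 5.12 and 4.95 in *Asx0* embryos and 4.84, 4.78 and 4.96 in wild type, so *Asx0* replicate 5 lay within the wild-type range. The log2 fold change was 0.22 (SE 0.06, limma adjusted p = 0.0395). This call was not stable: when single embryos were left out the adjusted p ranged from 0.0211 to 0.138 in limma and was above 0.05 without *Asx0* replicates 1, 2, 3 or 4 or without wild-type replicates 1 or 2.

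The Osiris genes with the largest log2 differences in this table were not called. *Osi14* had log2 normalized counts of 11.26, 12.12, 11.25, 11.46 and 10.43 in *Asx0* embryos and 10.52, 10.61 and 11.47 in wild type, a log2 difference of 0.44 with a standard error of 0.32 (limma adjusted p = 0.42). For *Osi6* the values were 7.96, 9.07, 8.24, 8.53 and 7.96 against 7.85, 7.70 and 8.31, and the log2 difference of 0.40 had a standard error of 0.23 (limma adjusted p = 0.306). *Osi2* stood at 12.57, 12.84, 12.43, 12.65 and 12.13 against 11.79, 12.09 and 12.57, a log2 difference of 0.37 (SE 0.18, limma adjusted p = 0.206). In all 3 genes *Asx0* replicate 2 was highest and wild-type replicate 3 was the highest wild-type embryo. Without wild-type replicate 3 *Osi2* passed (limma adjusted p = 0.0452).

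**Figure D2:**
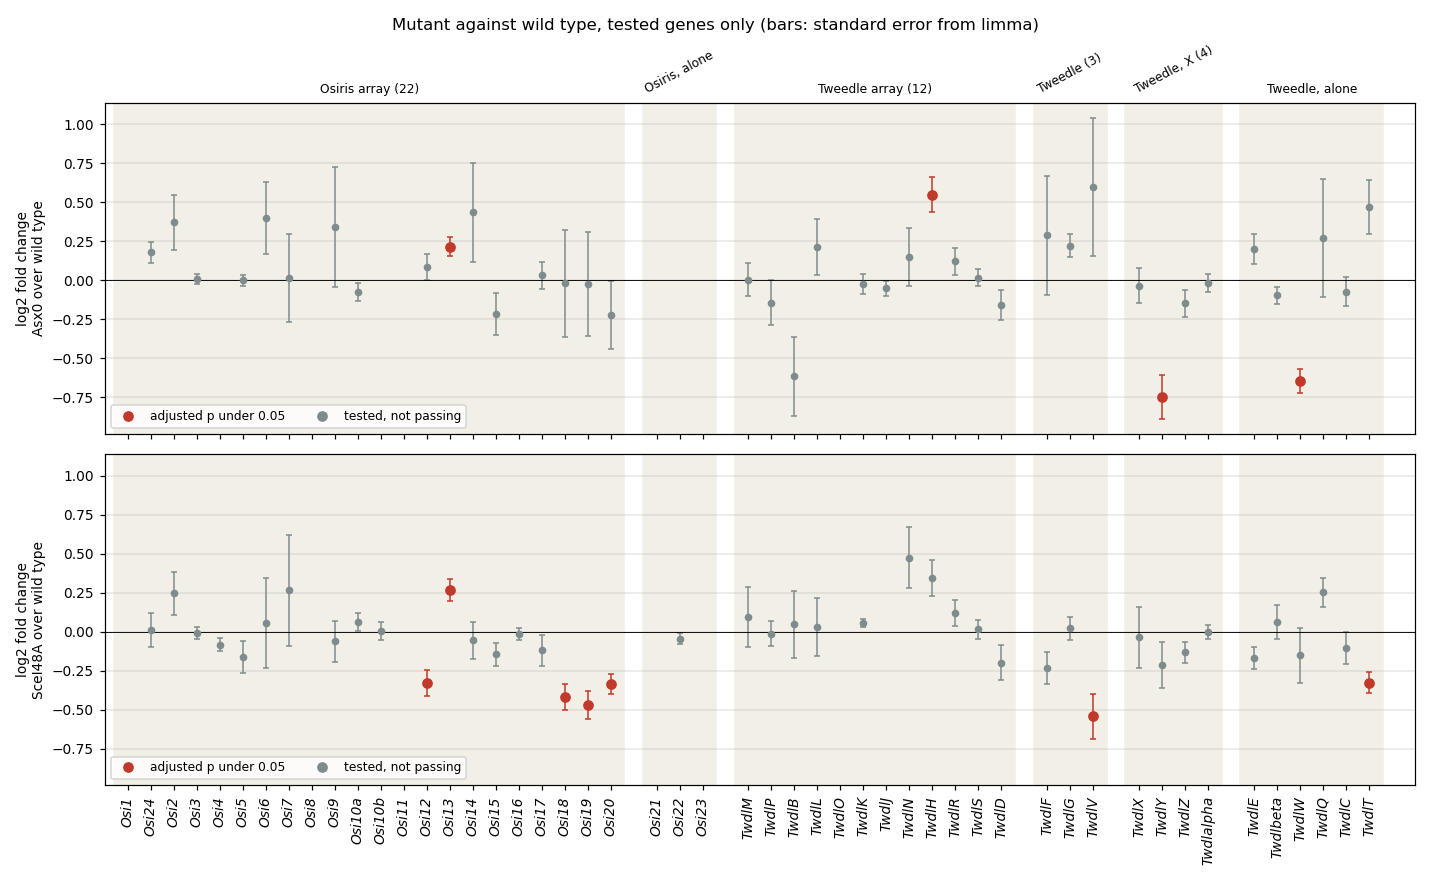
Log2 fold change of mutant over wild type (vertical axis, shrunken log2 scale) with its standard error from limma for the tested members, in chromosomal order within each array; upper panel *Asx0*, lower panel *SceI48A*. Red points have an adjusted p under 0.05, grey points do not, and members without a point were too low to be tested; *Osi18*, *Osi19* and *Osi20* at the end of the Osiris array are red in the lower panel and at -0.02, -0.02 and -0.22 in the upper.

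In *SceI48A* embryos the Osiris family held more calls, among them the last 3 genes of its array, which all fell. Of 20 tested Osiris genes 1 rose and 4 fell, and of 23 tested Tweedle genes none rose and 2 fell. Of the 10369 genes tested there, 3.10% were called higher and 4.39% lower, 7.48% in either direction, against 25.0% of the Osiris genes and 8.70% of the Tweedle genes. The median log2 fold change was -0.05 over the Osiris genes, -0.0015 over the Tweedle genes and 0.00075 over all genes tested. With single embryos left out the Osiris median lay between -0.099 and 0.0065 and the Tweedle median between -0.10 and 0.027. At an unadjusted p under 0.05, 5 Osiris and 7 Tweedle genes passed in limma, where 2560 of all 10369 tested genes did. By that looser threshold the Osiris genes were near the share over all genes.

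*Osi18*, *Osi19* and *Osi20* are adjacent, on the plus strand, and among the most abundant genes of the family. *Osi18* (3R:6330248-6331809) had log2 normalized counts of 13.62, 13.88, 13.64 and 13.94 in *SceI48A* embryos against 14.13, 14.19, 14.26 and 14.18 in wild type. *Osi19* (3R:6335362-6337196) had 14.17, 13.98, 13.83 and 14.21 against 14.41, 14.53, 14.61 and 14.52, and *Osi20* (3R:6340095-6341424) had 15.24, 15.15, 15.10 and 15.16 against 15.51, 15.47, 15.52 and 15.47. For each of the 3 genes every mutant embryo lay below every wild-type embryo. The log2 fold changes were -0.42 for *Osi18* (SE 0.08, adjusted p = 0.0125), -0.47 for *Osi19* (SE 0.09, adjusted p = 0.0106) and -0.33 for *Osi20* (SE 0.07, adjusted p = 0.0106), all from limma. These 3 calls held in each of the 18 alternative settings, including each embryo left out in turn, with log2 fold changes between -0.57 and -0.29.

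Elsewhere in the array only *Osi12* was called lower. Of the 20 tested Osiris genes 13 had a negative and 7 a positive log2 difference. *Osi17*, next to *Osi18*, had a log2 difference of -0.12 (SE 0.10, limma adjusted p = 0.49). *Osi15*, the most abundant Osiris gene, stood at 15.80, 15.61, 15.62 and 15.58 in *SceI48A* embryos and at 15.74, 15.78, 15.85 and 15.82 in wild type, a log2 difference of -0.15 that did not pass (limma adjusted p = 0.236), with mutant replicate 1 inside the wild-type range. *Osi14* (-0.06, SE 0.12), *Osi9* (-0.06, SE 0.13) and *Osi6* (0.06, SE 0.29) were not called. The standard error of *Osi6* leaves room for a fall as large as that of *Osi18*. The first abundant gene of the array, *Osi2*, was at 0.25 (SE 0.14, limma adjusted p = 0.296). In the *Asx0* table *Osi18*, *Osi19* and *Osi20* had log2 differences of -0.02, -0.02 and -0.22 with standard errors of 0.35, 0.33 and 0.22, which leave room for changes as large as those of the *SceI48A* table; the tables were normalized separately, and the difference between the mutants was not tested.

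*Osi12* fell and *Osi13* rose, at lower levels. *Osi12* (3R:6278531-6282495) had log2 normalized counts of 7.41, 7.23, 7.20 and 7.27 in *SceI48A* embryos and 7.73, 7.46, 7.51 and 7.72 in wild type, which is a log2 difference of -0.33 (SE 0.08, limma adjusted p = 0.0364). For *Osi13* (3R:6291737-6293489), the next Osiris gene of the array, the values were 6.41, 6.21, 6.30 and 6.45 against 5.91, 6.11, 6.13 and 6.14, and the log2 fold change was 0.27 (SE 0.07, limma adjusted p = 0.045). Neither gene had overlapping groups, so that 4 of the 20 Osiris genes had every mutant embryo below every wild-type embryo, where 9.10% of all tested genes did, and 1 had every mutant above, where 8.89% did. Both calls were lost in part of the settings. With embryos left out in turn the adjusted p from limma ranged from 0.0261 to 0.0952 for *Osi12*, above 0.05 without *SceI48A* replicates 2, 3 or 4 or wild-type replicates 1, 3 or 4, and from 0.0395 to 0.105 for *Osi13*, where it stayed under 0.05 only without *SceI48A* replicate 2.

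*TwdlT* and *TwdlV* were the Tweedle genes that fell in *SceI48A* embryos. *TwdlT* (3R:27049220-27051004), which lies alone, had log2 normalized counts of 12.73, 12.88, 12.77 and 12.92 in the mutants and a narrow 13.15, 13.12, 13.17 and 13.15 in wild type. The log2 fold change was -0.33 (SE 0.07, limma adjusted p = 0.0155), and the adjusted p rose to 0.0519 without wild-type replicate 3. *TwdlV* (3R:4254708-4255833), in the 3-gene array, had 11.50, 12.11, 12.26 and 11.80 against 12.60, 12.27, 12.50 and 12.46, a log2 fold change of -0.54 (SE 0.14, limma adjusted p = 0.0415). *SceI48A* replicate 3 and wild-type replicate 2 were nearly level, and the adjusted p was above 0.05 without *SceI48A* replicates 1 or 4 or without any 1 of the 4 wild-type embryos, up to 0.102. The other genes of the 3-gene array had log2 differences of -0.23 (*TwdlF*) and 0.02 (*TwdlG*) and were not called. In the *Asx0* table *TwdlT* and *TwdlV* had positive log2 differences that did not pass. They were 0.47 (SE 0.17, limma adjusted p = 0.109) and 0.60 (SE 0.44, limma adjusted p = 0.424). Wild-type replicate 1 of that table was low for *TwdlV*, at 10.12. The difference between the mutants was not tested.

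Other Tweedle genes with large log2 differences did not pass. *TwdlN* stood at 12.02, 11.71, 11.92 and 11.23 in *SceI48A* embryos and at 11.65, 11.04, 11.49 and 10.80 in wild type, a log2 difference of 0.48 (SE 0.20, limma adjusted p = 0.159). *TwdlH*, the gene that rose in *Asx0* embryos, had 7.16, 7.55, 7.73 and 7.53 against 7.30, 6.95, 7.24 and 7.10, a log2 difference of 0.34 (SE 0.12, limma adjusted p = 0.0922), with *SceI48A* replicate 1 inside the wild-type range. *TwdlW* and *TwdlY*, which fell in *Asx0* embryos, had log2 differences of -0.15 and -0.21 in *SceI48A* embryos (adjusted p = 0.634 and 0.407 from limma). For *TwdlW* the values of 14.23, 14.86, 14.83 and 14.19 in the mutants spanned most of the wild-type range of 15.05, 14.51, 14.75 and 14.40. *TwdlE* had every mutant embryo below every wild-type embryo, as had *TwdlT* and *TwdlV*, but its log2 difference of -0.17 did not pass (limma adjusted p = 0.16).

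**Figure D3:**
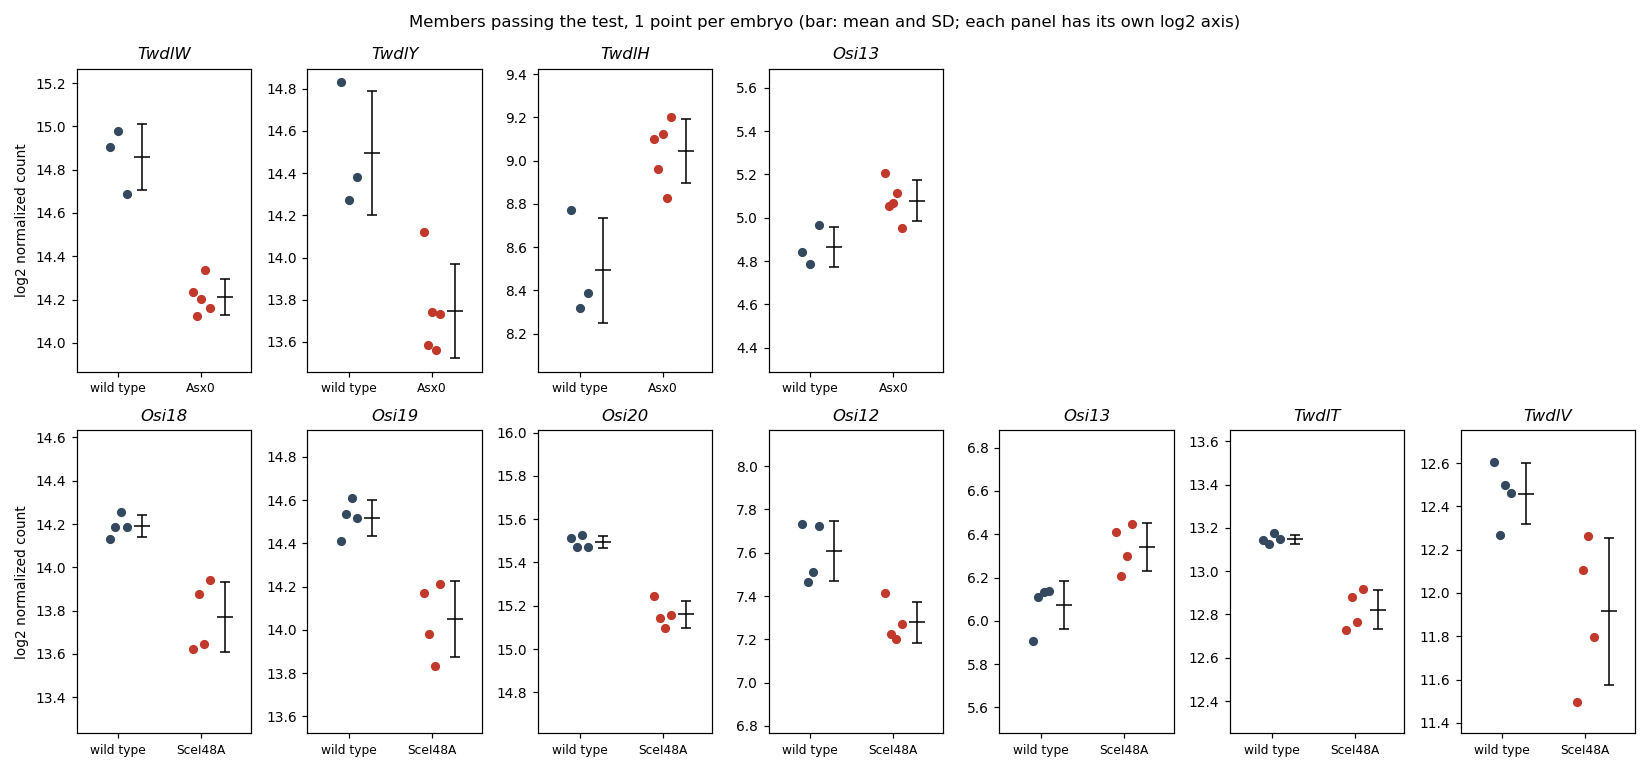
Log2 normalized count (vertical axes, a separate range per panel) of the members with an adjusted p under 0.05, upper row *Asx0* table, lower row *SceI48A* table. Each point is an embryo, wild type in dark blue and mutant in red, with the mean and SD beside it; the groups are apart in every panel but that of *Osi13* in the *Asx0* table, where 1 mutant embryo lies at 4.95 and 1 wild-type embryo at 4.96, and they nearly touch for *TwdlV*.

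Embryos of 1 group differed widely in these genes. Among genes whose mean normalized count reached 1000, the pooled SD within groups had a median of 0.0844 over all 3151 genes of the *Asx0* table, 0.221 over 16 Tweedle genes and 0.58 over 7 Osiris genes. All 7 Osiris and 10 of the 16 Tweedle genes exceeded 0.166, the 0.9 quantile over all these genes. In the *SceI48A* table the median was 0.124 over 3812 genes, 0.223 over 16 Tweedle and 0.209 over 9 Osiris genes, and 8 Tweedle and 4 Osiris genes exceeded the corresponding quantile of 0.214. Members share embryos and libraries, so these counts are a description.

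In the *Asx0* table the same embryos were high for many Osiris genes. *Osi9* had log2 normalized counts of 11.58, 12.36, 11.70, 12.27 and 10.92 in *Asx0* embryos and 10.54, 11.39 and 12.35 in wild type. *Osi19* had 12.22, 12.73, 12.08, 12.56 and 11.41 against 11.48, 12.17 and 13.02, and *Osi20* had 14.00, 14.29, 13.83, 14.21 and 13.30 against 13.73, 14.17 and 14.54. *Asx0* replicates 2 and 4 and wild-type replicate 3 were the 3 highest embryos for each of the 7 abundant Osiris genes, and *Asx0* replicate 5 or wild-type replicate 1 was the lowest. The span from the lowest to the highest embryo was 3.54-fold for *Osi9*, 3.05-fold for *Osi19* and 1.76-fold for *Osi15*, wider than the difference between the group means of any of the 7 genes.

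*TwdlF* had the same embryos on top as the abundant Osiris genes. Its log2 normalized counts were 14.10, 15.11, 14.35, 14.98 and 13.67 in *Asx0* embryos and 13.25, 14.29 and 14.94 in wild type, a 3.65-fold span. *TwdlB* ran the other way, lowest in *Asx0* replicates 4 (12.97) and 2 (13.51) and highest in wild-type replicate 1 (14.61), a 3.10-fold span. *TwdlM*, *TwdlL* and *TwdlN* of the same 12-gene array were lowest in wild-type replicate 3, at 15.65, 14.01 and 12.42. *TwdlV* was low in wild-type replicate 1 alone, at 10.12 against 12.19 to 12.62 in the other 7 embryos, a 5.68-fold span. *ovo*, the transcription factor whose Shavenbaby form drives epidermal trichome genes, was also highest in *Asx0* replicates 2 (9.87) and 4 (9.74) and wild-type replicate 3 (9.69).

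In the *SceI48A* table *Osi6* and *Osi7* varied most. *Osi6* had log2 normalized counts of 12.36, 12.44, 11.65 and 13.29 in *SceI48A* embryos and 11.82, 12.72, 12.27 and 12.71 in wild type. *Osi7* had 12.92, 11.92, 11.20 and 13.01 against 11.29, 12.33, 12.04 and 12.33, a 3.51-fold span. *SceI48A* replicate 3 and wild-type replicate 1 were the lowest embryos for both genes. The same pair were the highest for *TwdlB* (12.99 and 13.17), *TwdlL* (13.32 and 13.46) and *TwdlM* (15.44 and 15.49), and *SceI48A* replicate 4 and wild-type replicates 2 and 4 were the lowest for these 3 genes. *ovo* was lowest in *SceI48A* replicate 3 (10.90) and wild-type replicate 1 (10.85), where the other 6 embryos lay between 11.28 and 11.59. *Osi18*, *Osi19* and *Osi20* shared this order in part: wild-type replicate 1 was the lowest wild-type embryo for *Osi18* and *Osi19*, and *SceI48A* replicate 3 the lowest mutant embryo for *Osi19* and *Osi20*. Their 4 wild-type embryos lay closer together than for *Osi6* and *Osi7*, from 14.13 to 14.26, from 14.41 to 14.61 and from 15.47 to 15.52.

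**Figure D4:**
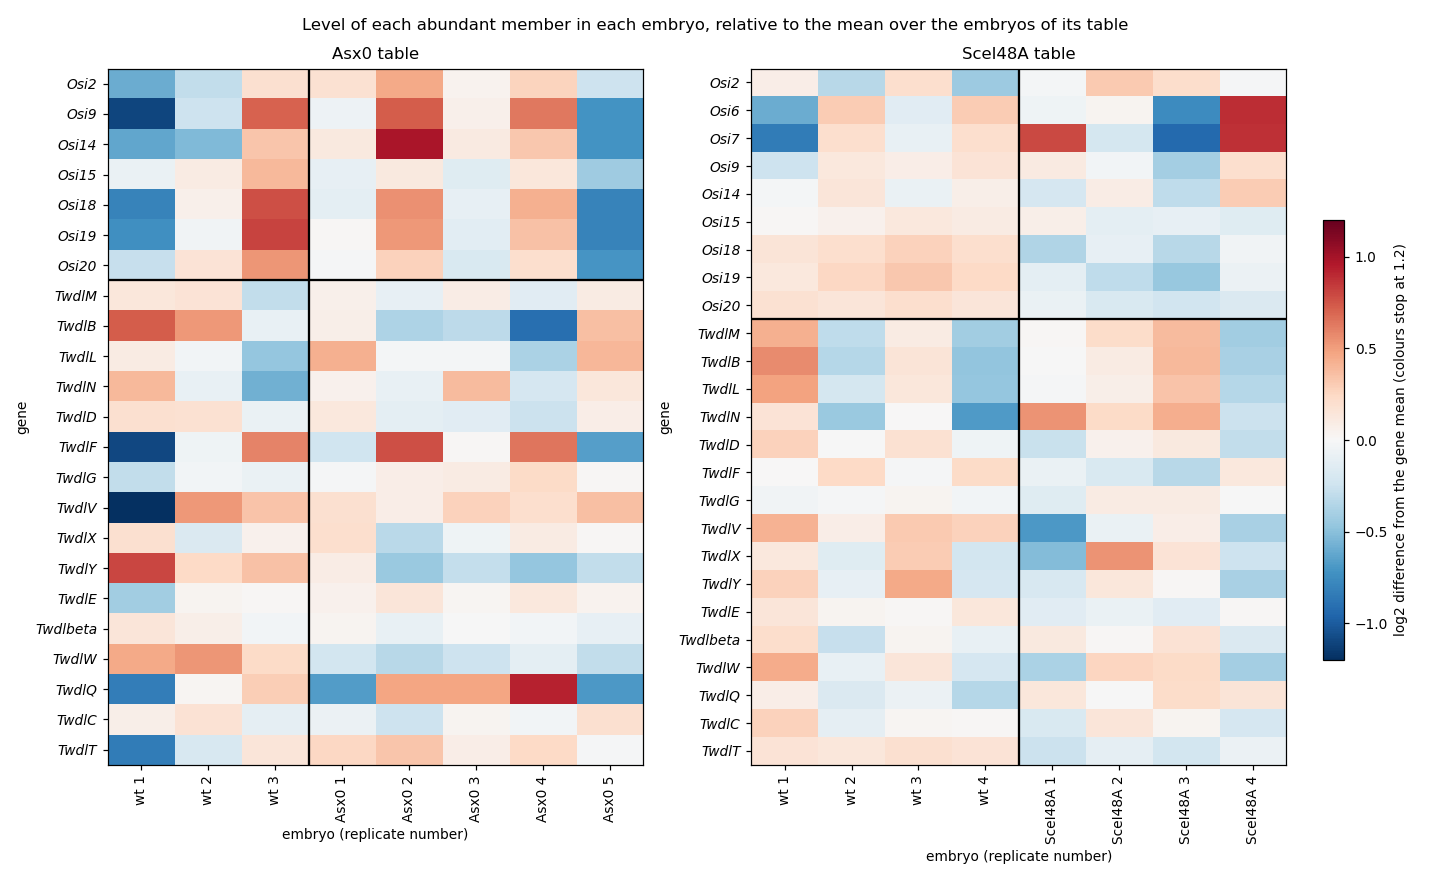
Log2 difference of each embryo (columns) from the mean of its table, for members whose mean normalized count reached 1000 (rows, Osiris above the horizontal line, Tweedle below); left, *Asx0* table, right, *SceI48A* table, wild type left of the vertical line. Red is above and blue below the gene's mean and colours stop at 1.2; on the left *Asx0* replicates 2 and 4 and wild-type replicate 3 are red for the 7 Osiris genes and for *TwdlF*, and blue or pale for *TwdlB*.

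The wild-type embryos of the 2 tables also differed in these families, in opposite directions. The embryos of each table were chosen by the authors to match the stage of its mutant, and the tables were normalized separately, so these values are set side by side without a test. Over 10069 genes the wild-type mean was higher in the *SceI48A* table by a median of 0.43 on the log2 scale. The Osiris genes were higher by a median of 1.88, with 12 of 16 above 1, where 4.68% of all genes were. The Tweedle genes were at a median of -0.37, with 6 of 23 below -1, where 1.89% of all genes were, and 3 above 1.

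*Osi6* showed the widest gap among the members, with a wild-type mean log2 normalized count of 7.95 in the *Asx0* table and 12.38 in the *SceI48A* table. *Osi7* was at 8.35 and 12.00, *Osi14* at 10.87 and 13.78, and *Osi9* at 11.42 and 14.10. The 3 Tweedle genes on the side of the Osiris genes were *TwdlF* (14.16 and 16.81), *TwdlQ* (10.20 and 11.62) and *TwdlT* (12.07 and 13.15). The 6 Tweedle genes below -1 were *TwdlP*, *TwdlB*, *TwdlN*, *TwdlL*, *TwdlH* and *TwdlK*, all of the 12-gene array, with *TwdlP* at 8.50 and 6.57 and *TwdlB* at 14.26 and 12.58. The gap between the 2 sets of wild-type embryos was larger for each gene named here than its difference between mutant and wild type within a table.

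**Figure D5:**
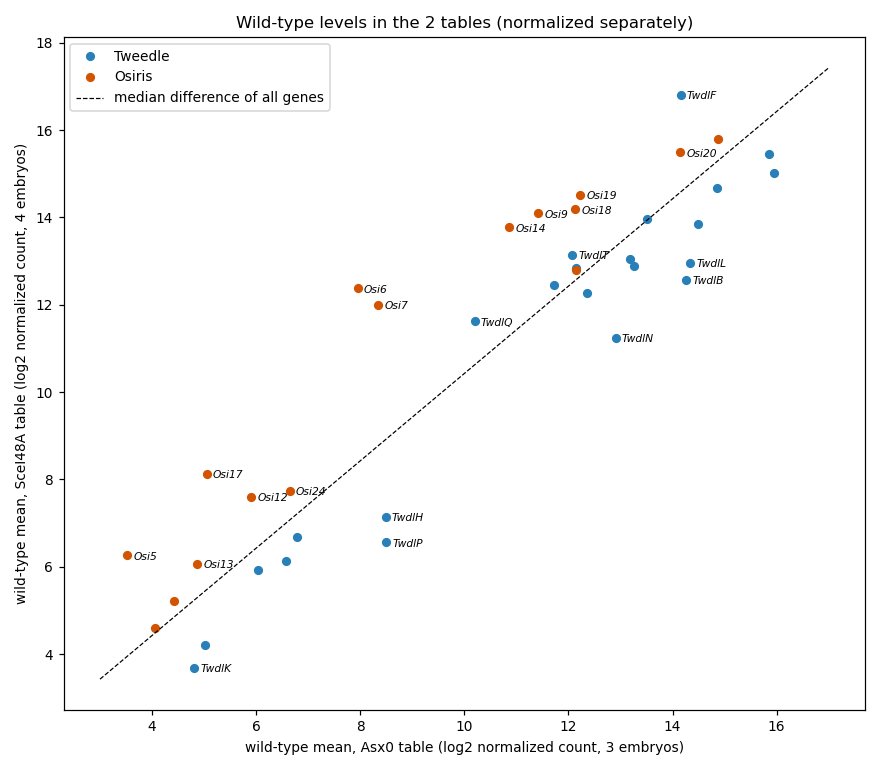
Mean log2 normalized count of each tested member in the wild-type embryos of the *Asx0* table (horizontal axis, n = 3) and of the *SceI48A* table (vertical axis, n = 4), Tweedle genes in blue and Osiris genes in orange. Members that differ by more than 1 are named and the dashed line is the median difference of all genes; the Osiris genes lie above the line, and the named Tweedle genes other than *TwdlF*, *TwdlQ* and *TwdlT* lie below it.

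The tables held 8 genes that lie inside the arrays and are no members, among them the neuropeptide receptor gene *NPFR* in the Osiris array. Of these 6 were tested and none was called. Over all tested genes 11.3% were called in the *Asx0* and 7.48% in the *SceI48A* table, so 6 genes are too few to differ from that share. At an unadjusted p under 0.05 in limma 0 passed in the *Asx0* and 1 in the *SceI48A* table, where 2722 of 10212 and 2560 of 10369 genes did. *NPFR* had log2 differences of -0.14 in *Asx0* and -0.18 in *SceI48A* embryos. *CG46026*, between *Osi16* and *Osi17*, was at 0.05 and 0.04. *Tb*, the Tweedle gene outside the symbol rule, had log2 normalized counts of 12.32, 12.40, 12.28, 12.30 and 12.01 in *Asx0* embryos and 12.12, 12.30 and 12.08 in wild type, a log2 difference of 0.10 (limma adjusted p = 0.523). In *SceI48A* embryos it was at 12.28, 12.75, 12.96 and 12.85 against 12.77, 12.41, 12.51 and 12.28, a log2 difference of 0.21 (limma adjusted p = 0.383).

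Other cuticle and epidermal genes were read in the same fits. Over all tested genes 5.19% were called higher and 6.15% lower in *Asx0* embryos, and 3.10% and 4.39% in *SceI48A* embryos. An unadjusted p under 0.05 in limma was reached by 2560 of the 10369 genes tested in the *SceI48A* table. Of 69 tested genes for Cpr, Lcp, Ccp and related cuticle proteins, 3 rose and 12 fell in *Asx0* embryos. *Lcp65Ad* (log2 fold change 0.47) and *Cpr97Eb* (0.34) were among those that rose, *Lcp65Ag1* (-1.14) and *Cpr49Ac* (-0.59) among those that fell. In *SceI48A* embryos 1 of 63 rose and 11 fell, led by *Cpr67Fa1* (-1.53). The median log2 fold change of the list was 0.00023 in *Asx0* and -0.069 in *SceI48A* embryos. Of 23 genes that make or remodel chitin, 3 rose, including the chitinase gene *Cht10* (0.76), and 1 fell in *Asx0* embryos, and none of 24 was called in *SceI48A* embryos (4 at an unadjusted p under 0.05 in limma). Of 17 trichome genes 3 rose in *Asx0* embryos, among them *neo* (0.45) and *sha* (0.24), and 1, the pigment gene *y*, rose in *SceI48A* embryos. Of 22 epidermal and cuticle transcription factor genes 1 fell in *Asx0* embryos, and 4 rose in *SceI48A* embryos, namely *sob* (0.28), *SoxN* (0.32), *EcR* (0.42), which encodes the ecdysone receptor, and *Eip75B* (0.38), an ecdysone response gene.

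Genes listed for other cell types were read beside the shares called over all tested genes. These shares were 5.19% higher and 6.15% lower in *Asx0* embryos, and 3.10% and 4.39% in *SceI48A* embryos. Of 17 genes listed for trachea 1 rose and 1 fell in *Asx0* embryos. In *SceI48A* embryos 4 rose (*pio*, *bnl*, *crb* and *dpp*, by 0.28 to 0.57 on the log2 scale). The list holds genes not confined to tracheal cells, such as the signal genes *bnl* and *dpp*, so it does not measure the amount of trachea. The log2 summed level of the tracheal list lay between 17.98 and 18.16 in *SceI48A* embryos and between 17.90 and 17.95 in wild type. This sum follows abundant genes such as *Gasp*, *verm* and *serp* (mean log2 of 16.74, 15.83 and 14.86 in *SceI48A* embryos), which were not called. For the cuticle protein list the sum lay between 16.98 and 17.47 in *SceI48A* embryos and between 17.24 and 17.71 in wild type. Neither sum measures the share of a tissue. With the mean of the cuticle protein genes as a covariate *Osi18*, *Osi19* and *Osi20* passed in *SceI48A* embryos in limma, with log2 fold changes of -0.57 to -0.35. *Osi12*, *Osi13* and *TwdlV* did not pass with it (limma adjusted p = 0.0705, 0.124 and 0.0874), while *TwdlN* and *TwdlH* did (0.0451 and 0.0212). Genes of that list were themselves called in *SceI48A* embryos, so the covariate does not separate the amount of cuticle from the mutation. Of 15 muscle genes 2 rose in *Asx0* embryos and none was called in *SceI48A* embryos. Of 15 neuronal genes 1 fell in *Asx0* embryos and none was called in *SceI48A* embryos. At an unadjusted p under 0.05 in limma 2 muscle and 2 neuronal genes passed in *SceI48A* embryos, where 2560 of all 10369 genes did. Of the tested hemocyte genes 1 of 12 fell in *Asx0* embryos, and 1 rose and 4 fell of 11 in *SceI48A* embryos. Of fat body genes 1 of 6 fell in *Asx0* embryos, and 1 rose and 1 fell of 8 in *SceI48A* embryos, and of 10 salivary gland and midgut genes 4 fell in *Asx0* and 2 in *SceI48A* embryos. *Lsp1alpha*, *Lsp1beta* and *Fbp2*, which mark the later fat body, and *Sgs1* of the later salivary gland were under a mean normalized count of 10 in both tables. Their part in the results was not tested.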

How the data were processed

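Poly(A) libraries of single stage 16 embryos, made with a kit that does not mark strand, were quantified by the authors with Salmon against *Drosophila* transcripts, summed to genes with tximeta and processed with DESeq2. Embryos were kept by the authors after principal component analysis and morphology. Per the submitters' processing notes the build is dm6; versions of these tools are not given in the sources used here. The authors deposited a log2 normalized count per gene and embryo, which behaves like a regularized logarithm, and a mean normalized count per gene (a signal pooled over the embryos of a table). The deposited columns with the authors' own fold changes, test statistics and p-values were not used. Depth per embryo is unknown, since total counts were not in hand, and intervals that need it are left out.

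Symbols were matched to gene IDs, 32 of 13754 remaining without a symbol. Coordinates and coding lengths are those of the Ensembl annotation of the dm6 assembly; start and end matched the RefSeq table for all 50 members. Genes of an array start at most 50 kb apart. Coding length came from annotated coding exons in place of a planned protein table. Promoter and protein sequences were not analysed here, so near-identical members that could share reads were not looked for.

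Each table was fitted alone with limma 3.58.1 in R 4.3.3 (2 groups, empirical Bayes with a variance trend, mean normalized count of at least 10, Benjamini-Hochberg over all tested genes), a step tested on simulated data. Named members are those called, the 3 largest log2 differences per family and comparison, and the 4 highest per kb of coding length; other genes are from fixed lists or lie inside the arrays, up to 4 per list. The members and lists were chosen with earlier results of these data known. Embryos are separate animals; wild-type embryos differ between the tables. Alternatives were 2 other filters, robust variances, embryo weights, quantile normalization, median centring, a pseudocount of 5, a cuticle gene and a sex gene covariate, a replicate block, and each embryo left out.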

Additional observations from a re-analysis of the deposited data

Results flagged for a closer look

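*Osi13* in wild-type replicate 1 of the *SceI48A* table stood apart from its group, with a log2 normalized count of 5.91 against 6.11 to 6.14 in the other 3 wild-type embryos. It was the only embryo found far from its group among 45 sets of named member and group with 4 or 5 embryos, where chance alone gives about 1 in 20. Without this embryo the log2 difference of *Osi13* did not pass the limma test. That loss was not particular to this embryo, since the call held only when *SceI48A* replicate 2 was the embryo left out. Groups of 3 embryos were not looked at in this way, so *TwdlV* in wild-type replicate 1 of the *Asx0* table, at 10.12, was not examined.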

How the results depend on the processing

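Of 305 values of single members under alternative settings, 256 kept their direction and side of the threshold, 42 lost and 7 gained a call, and none changed direction. *TwdlW*, *TwdlY* and *TwdlH* in *Asx0* and *Osi18*, *Osi19* and *Osi20* in *SceI48A* embryos passed in all 18 settings of their table. In *Asx0* embryos the number of called Osiris genes went from 1 to 0 without a filter, with a mean of at least 50, with embryo weights and with the replicate block, and ranged from 0 to 2 when single embryos were left out; *Osi13* fell below the filter of 50. With single embryos left out the median of the Tweedle genes ranged from -0.046 to 0.038 and that of the Osiris genes from -0.043 to 0.23. In *SceI48A* embryos the number of called Tweedle genes went from 2 to 1 without a filter, with the sex gene covariate and with the replicate block, under which *TwdlT* (adjusted p = 0.0504 from limma) and *TwdlV* (0.0765) were both lost and *TwdlN* (0.0175) was gained, to 4 with embryo weights and to 5 with the cuticle covariate, and ranged from 0 to 2 with single embryos left out. The number of called Osiris genes went from 5 to 3 with the cuticle covariate and ranged from 3 to 4 with single embryos left out; their median was -0.15 with that covariate and between -0.099 and 0.0065 with single embryos left out. The cause was not tested.

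Replicate numbers did not pair the embryos: deviations of same-numbered embryos correlated at 0.156, 0.064 and -0.089 in the *Asx0* and from -0.13 to 0.107 in the *SceI48A* table. With the replicate block *TwdlB* passed in *Asx0* (adjusted p = 0.0284 from limma), all calls went from 1158 to 654 and from 776 to 446, and 4 Tweedle genes passed in *Asx0* and 4 Osiris genes in *SceI48A* embryos. All calls also went to 749 with the sex gene covariate in the *Asx0* table, and in the *SceI48A* table to 1178 with embryo weights and 501 with the cuticle covariate. Fewer than 10 mean normalized counts left 1 Tweedle and 9 Osiris genes untested in the *Asx0* and 2 and 5 in the *SceI48A* table.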
